A study of Mus musculus with 6 samples.

Results

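Ccl28, gene ENSMUSG00000074715, encodes the chemokine CCL28, and it is described here in the testis of nicotine-exposed and unexposed mice. It was found by its symbol as 1 of the 32285 genes counted, and 1 feature carried that symbol. The gene was chosen with its levels across cells and mice already known, so its own levels and its own nicotine difference are given as a description, without a test. The nicotine group held 3 C57BL/6J males, from a widely used inbred strain, whose water carried nicotine at 200 µg/mL over 8 weeks starting at 3 weeks of age. The control group was 3 males of the same strain given plain drinking water, and all 6 mice were sampled at 11 weeks of age. Both testes of a mouse went into 1 droplet single-cell RNA library, so the mouse is the replicate. A transcript molecule is counted once by its unique molecular identifier (UMI). The labels name no engineered allele.

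CCL28 is a secreted CC chemokine known as the mucosae-associated epithelial chemokine. It is made by epithelial cells of the gut, airway, salivary and mammary glands, where it draws IgA-secreting plasma cells and T cells that carry its receptors CCR10 and CCR3. Its long basic C-terminal tail is also antimicrobial. The name of the CC family refers to a pair of neighbouring cysteines near the start of the mature protein.

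Ccl28 lies on the + strand of mouse chromosome 13 in build GRCm38 (chr13:119623819-119654359), and 0 other annotated genes overlap it on either strand. Its coding transcript has 3 exons, and the last, 3495 bases long, is mostly 3′ untranslated region. The library chemistry reads transcripts from the 3′ end, which for Ccl28 is that exon. The coding sequence has 130 codons before the stop and 7 cysteine codons. Its first 100 codons are shown because they hold the neighbouring cysteines that define the family, at codons 30 and 31. They span chr13:119623873-119650973 across the introns, and the 7 in-frame cysteine codons are in capitals.
Ccl28 codons 1 to 100, 5′ to 3′, GENCODE release 21 of GRCm38, + strand: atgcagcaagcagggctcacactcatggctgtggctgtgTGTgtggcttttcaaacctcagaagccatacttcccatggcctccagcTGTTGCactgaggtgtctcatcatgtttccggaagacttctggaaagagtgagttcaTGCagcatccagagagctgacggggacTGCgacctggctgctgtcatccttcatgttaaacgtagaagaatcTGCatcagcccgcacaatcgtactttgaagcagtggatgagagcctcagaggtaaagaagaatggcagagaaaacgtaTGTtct

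The nicotine libraries held 67853893 to 73596886 UMIs and the control libraries 75923816 to 88329607. After filtering, 9882 to 10495 nicotine cells and 9848 to 11008 control cells were kept per mouse, 61945 in all. Clusters were named "-like" from marker genes alone, and "low-UMI" marks germ cell clusters with the same markers at few UMIs. Levels are CPM, the UMIs of a gene per 1000000 UMIs of the summed cells, with the mouse as the unit of the SD. Among kept cells, 60993 barcode sequences occurred in 1 library and 475 in 2 or more, and cells were always identified by library and barcode. In the named somatic classes, 7.35% to 8.30% of a nicotine mouse's cells were found, against 9.82% to 11.9% of a control mouse's cells, so summed values over all cells also carry that difference in makeup.

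Ccl28 was a transcript of the later germ cells. Of its 4981 UMIs in kept cells, 2494 were in round spermatid-like cells, 1412 in elongating spermatid-like cells and 672 in late spermatocyte-like cells. The named somatic classes, 5889 cells, held 38. Round spermatids are the haploid cells that have just left meiosis, and elongating spermatids are those that condense their nucleus and build the tail. In nicotine mice, the level in round spermatid-like cells was 17.6, 17.4 and 20.02 CPM, and in control mice it was 12.8, 12.6 and 12.9 CPM. In elongating spermatid-like cells it was 12.4, 12.4 and 15.1 CPM in nicotine mice and 7.85, 7.99 and 7.02 CPM in control mice. Spermatocytes are the cells in meiosis, but part of the late spermatocyte-like class also carried a round spermatid marker, as given below. In late spermatocyte-like cells the level was 14.9, 11.4 and 14.01 CPM in nicotine mice and 7.89, 6.96 and 5.72 CPM in control mice. Every mouse had its highest value of the 3 in round spermatid-like cells. The order of the other two did not hold in all mice.

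Along the series the level was low in the earliest germ cells, highest in round spermatid-like cells and still present in the last clusters. The germ cell clusters were ordered by marker genes, with the 6 mice pooled for this profile. Cluster 17, left unnamed because its leading genes pointed to more than 1 class, had 1.33 CPM (exact 95% Poisson interval 0.363 to 3.41, from 4 UMIs). Early spermatocyte-like cluster 16 had 3.70 CPM, from 10 UMIs. The late spermatocyte-like clusters had 3.98 CPM in cluster 18, 8.03 CPM in cluster 14 and 11.6 CPM in cluster 6. The pooled step between clusters 18 and 14 differed by group: nicotine mice averaged 5.06 ± 3.24 CPM in cluster 18 and 11.1 ± 2.99 CPM in cluster 14, and control mice 3.21 ± 1.32 and 3.91 ± 0.256 CPM (SD, n = 3 each).

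The highest pooled level with many cells was 17.7 CPM in cluster 4, the earliest large round spermatid-like cluster, with 1114 UMIs (16.7 to 18.8 CPM). Cluster 19, beside it, had 18.2 CPM but only 16 UMIs in 286 cells, so its interval ran from 10.4 to 29.5 CPM. The remaining round spermatid-like clusters had 12.9 CPM in cluster 10, 15.0 CPM in cluster 8 and 12.2 CPM in cluster 11, and the 5 elongating spermatid-like clusters had 10.2 to 11.7 CPM. The 2 low-UMI elongating clusters, 5 and 3, had 7.64 and 7.65 CPM, each from under 40 UMIs. These intervals cover counting error only.

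**Figure D1:**
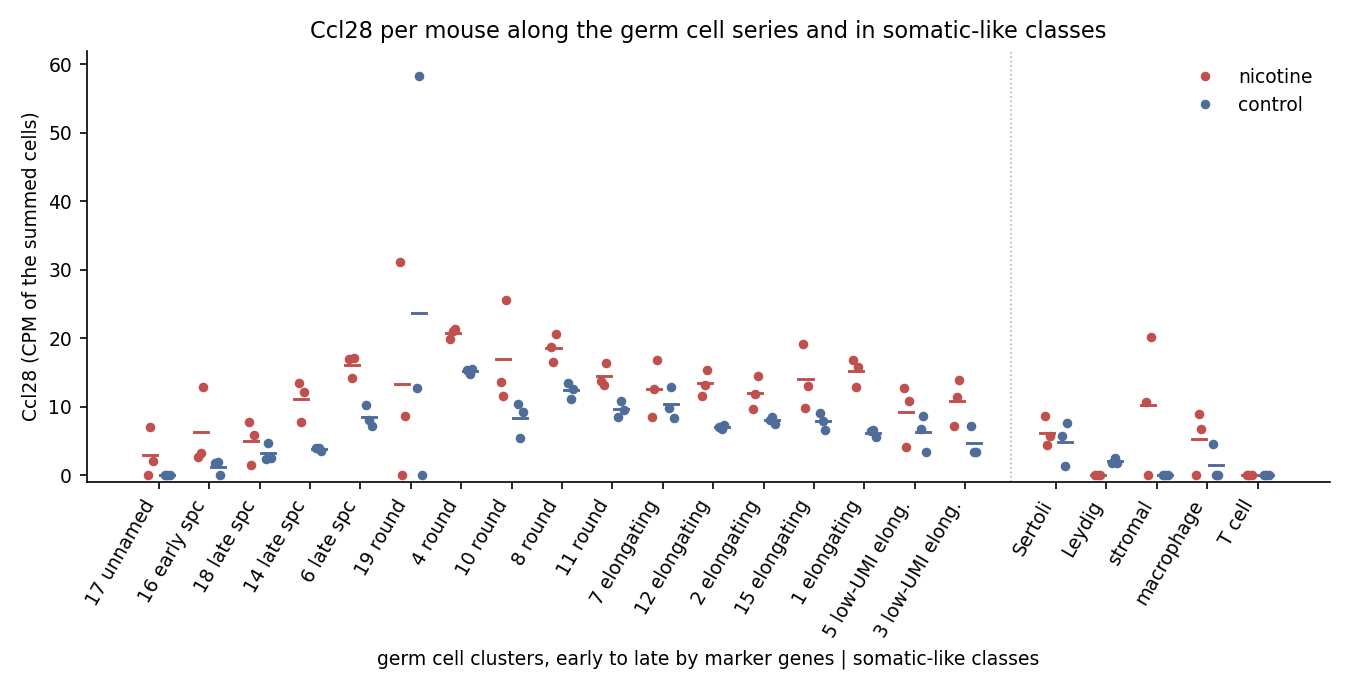
Ccl28 level (CPM of the summed cells, y axis) in each of 17 germ cell clusters ordered by marker genes and in the 5 named somatic-like classes (x axis). Points are single mice, nicotine left and control right, and short lines are means of 3 mice; cluster 4 holds 19.9 to 21.3 CPM in nicotine mice and 14.8 to 15.5 CPM in control mice, while the points of cluster 19 and of the somatic classes rest on few UMIs.

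The course of Ccl28 differed in shape from the stage markers. Piwil1, which encodes a PIWI protein that protects meiotic and postmeiotic cells from transposons, peaked in cluster 18. Acrv1, which encodes an acrosomal protein made in round spermatids, peaked at 863 CPM in cluster 8 and was down to 22.2 CPM in cluster 2, or 2.57% of its peak. Ccl28 was still at 56.2% of its own highest level in cluster 2, with 569 UMIs there. Prm1, a protamine that replaces histones in elongating spermatids, reached its highest level in cluster 15, after the Ccl28 peak. Ccl28 was thus highest near the Acrv1 peak and, unlike Acrv1, kept at least 56.2% of its highest level in the 5 elongating spermatid-like clusters. In the low-UMI elongating clusters 5 and 3 it was at 42.0% and 42.1%. The highest level is that of cluster 19, which rests on 16 UMIs, and cluster 4 was at 97.7% of it.

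**Figure D2:**
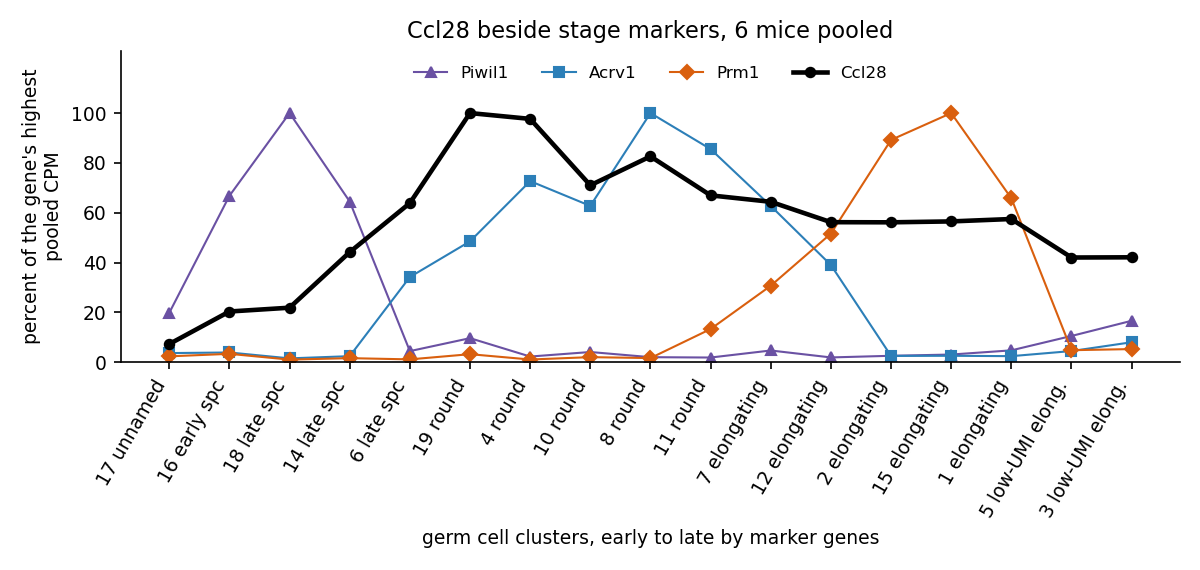
Pooled CPM of Ccl28, Piwil1, Acrv1 and Prm1 in the ordered germ cell clusters, each as a percent of that gene's highest cluster (y axis), with 6 mice pooled per point. Ccl28 is at 97.7% in cluster 4 and at 56.2% to 57.5% in clusters 12, 2, 15 and 1, while Acrv1 is at 2.47% to 2.62% in clusters 2, 15 and 1.

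Over the 12 round spermatid marker genes used to name the clusters, the level in elongating spermatid-like cells ran from 10.2% to 114% of that in round spermatid-like cells, with a median of 19.7%. For Ccl28 it was 67.2%. In single mice, this ratio for Ccl28 was 0.703, 0.709 and 0.756 in nicotine mice and 0.616, 0.633 and 0.545 in control mice. The nicotine ratios were all above the control ratios, but nothing is read from this, as Ccl28 was chosen on these values. The share of all genes with that pattern is not given here. The spread of the markers was wide, with Tssk1, a testis-specific serine kinase gene, at 71.1%, and Izumo2 and Spag4 above 100%.

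Somatic cells held few Ccl28 UMIs. Sertoli-like cells, the epithelium that supports germ cells, had 28 UMIs in 4604 cells, with 8.64, 4.45 and 5.72 CPM in nicotine mice and 5.73, 1.37 and 7.72 CPM in control mice. The groups overlapped, whereas 7.42% of genes had every nicotine mouse above every control mouse and edgeR called 0.102%. Leydig-like cells, which make testosterone, had 4 UMIs in 440 cells, all in control mice, at 1.79, 2.50 and 1.83 CPM. None of the 163 nicotine Leydig-like cells had a UMI, which allows up to 3.63 CPM. Stromal-like cells had 3 UMIs, all in nicotine mice, and the 298 control cells allow up to 4.89 CPM. Macrophage-like cells had 3 UMIs. Ccl28 did not have all nicotine mice above all control mice in Leydig-like, stromal-like or macrophage-like cells, as 4.13%, 6.77% and 3.71% of their genes did. The 48 T cell-like cells had 0 Ccl28 UMIs, which allows up to 25.3 CPM.

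Germ cell RNA was also present in the somatic classes. The 12 round spermatid markers stood in Sertoli-like cells at 11.9% to 23.5% of their level in round spermatid-like cells, and in Leydig-like cells at 5.93% to 10.6%. Ccl28 stood at 6.56% in Leydig-like cells, but its 4 UMIs give a counting interval of 2.57% to 24.1%, wider than the range of the markers. In Sertoli-like cells the mean of Ccl28 stood at 36.0% (24.2% to 52.7% by the counting interval of its 28 UMIs), above the range of the markers. Both intervals use Ccl28 UMIs pooled over mice, while the percents use means of 6 mice. They leave out the spread between mice, which in Sertoli-like cells was 5.61 ± 2.57 CPM (SD, n = 6). Single mice were not compared with the markers. Median depth of Sertoli-like cells was 886 to 963.5 UMIs in nicotine mice and 863.5 to 1061 in control mice. The part that free germ cell RNA plays in the Sertoli-like value was not tested.

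In single cells Ccl28 was sparse even at its peak. In round spermatid-like cells, 23.8%, 25.8% and 24.98% of cells had at least 1 UMI in nicotine mice, against 21.3%, 18.9% and 21.4% in control mice. The same share in Leydig-like cells was 0 in each nicotine mouse and 0.893% to 1.22% in control mice. Median depths were 14499 to 16588.5 UMIs per round spermatid-like cell in nicotine mice and 16992.5 to 17553.5 in control mice, against 4791 to 6094.5 per Leydig-like cell in nicotine mice and 6697 to 7463 in control mice. No round spermatid-like cell had more than 7 Ccl28 UMIs in nicotine mice or more than 6 in control mice.

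With each cell thinned to 2000 UMIs, 3.36%, 2.51% and 3.26% of round spermatid-like cells kept a Ccl28 UMI in nicotine mice, against 2.27%, 2.01% and 2.56% in control mice. At that depth the groups overlapped, and 211 nicotine and 271 control cells were too shallow to enter. The thinned share in elongating spermatid-like cells was 2.44% ± 0.380 in nicotine mice and 1.51% ± 0.144 in control mice (SD, n = 3 each).

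The UMIs were spread over round spermatid-like cells about as evenly as depth alone gives. If every cell of a mouse held Ccl28 in the same proportion, 1095 nicotine and 916 control round spermatid-like cells would have at least 1 UMI. The counts were 1065 nicotine and 897 control cells. At least 2 UMIs were found in 225 nicotine cells, where even spread gives 221, and in 179 control cells, where it gives 163. Of the elongating spermatid-like cells, 64 nicotine cells had at least 2 UMIs where even spread gives 61.5, and 40 control cells had them where it gives 25.8.

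Between the groups, Ccl28 was higher in nicotine mice in each of the main germ cell classes. It averaged 18.4 ± 1.44 CPM in round spermatid-like cells of nicotine mice and 12.8 ± 0.138 CPM in control mice (SD, n = 3 each). The averages were 13.3 ± 1.60 and 7.62 ± 0.522 CPM in elongating spermatid-like cells of nicotine and control mice, and 13.4 ± 1.83 and 6.86 ± 1.09 CPM in their late spermatocyte-like cells. In all 3 classes the lowest nicotine mouse stood above the highest control mouse. Of all genes measured there, 4.56% had that pattern in round spermatid-like, 8.21% in elongating spermatid-like and 12.5% in late spermatocyte-like cells. Of the 11104 genes with at least 5 CPM over all kept cells, 10 had it in all 3 classes (0.0901%), Ccl28 among them, and nothing is read from this either way, as it was chosen on these values.

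The log2 fold change of Ccl28, nicotine over control, was 0.54 ± 0.096 (SE) in round spermatid-like, 0.78 ± 0.11 in elongating spermatid-like and 0.90 ± 0.16 in late spermatocyte-like cells. Among genes with at least 5 CPM in the class, 10 of 10219 had a larger fold change in round spermatid-like cells, 0 of 8048 in elongating spermatid-like cells and 18 of 10954 in late spermatocyte-like cells. At a Benjamini-Hochberg adjusted p of 0.05, edgeR called 0 of 17692 genes in round spermatid-like cells (0.0%), where 953 had an unadjusted p under 0.05 and DESeq2 called 0. It called 1 of 15386 in elongating spermatid-like cells (0.0065%), which was Ccl28 itself, and 134 of 15895 in late spermatocyte-like cells (0.843%). The elongating count was 0 without control replicate 1 and without any 1 of the 3 nicotine mice, and the late spermatocyte count ran from 22 without control replicate 2 to 452 without nicotine replicate 2. Likewise nothing is read from the place of Ccl28 among the calls or the fold changes.

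**Figure D3:**
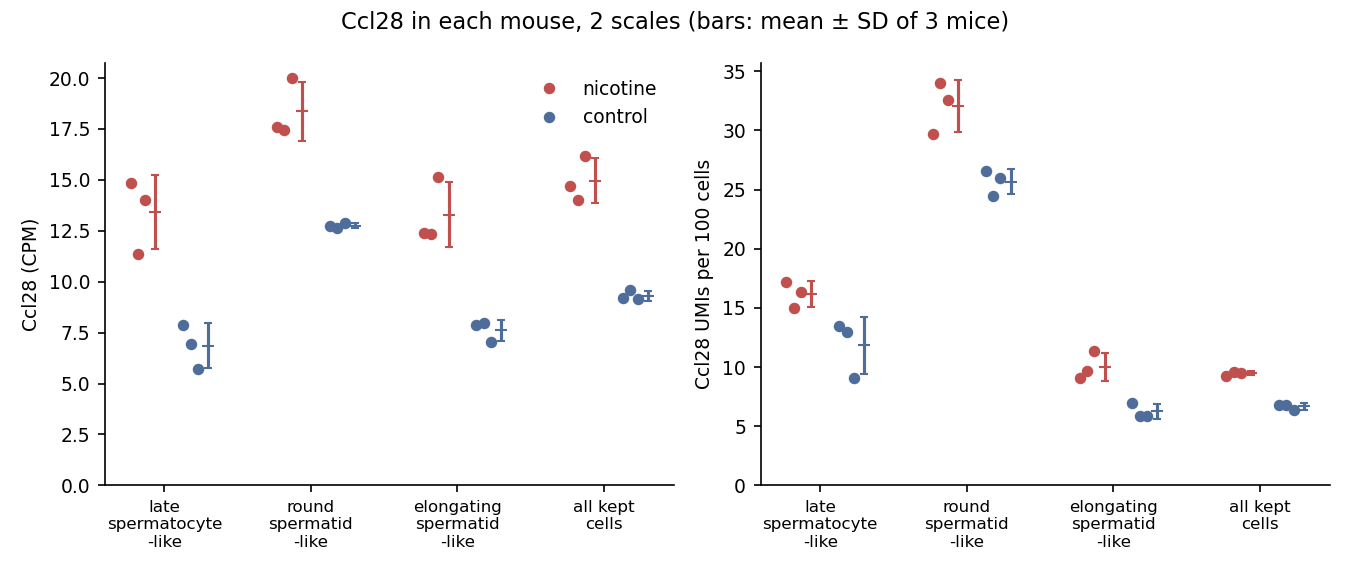
Ccl28 in each mouse in 3 germ cell classes and in all kept cells together, as CPM (left panel, y axis) and as UMIs per 100 cells (right panel, y axis). Nicotine mice stand left and control mice right in each class, with bars for mean ± SD of 3 mice; on both scales each nicotine mouse lies above each control mouse, with 17.4 to 20.02 in nicotine mice against 12.6 to 12.9 CPM in control mice in round spermatid-like cells.

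Round spermatid-like and late spermatocyte-like cells were shallower in nicotine mice, and the Ccl28 difference was smaller per cell than in CPM. In round spermatid-like cells there were 29.7, 34.0 and 32.6 Ccl28 UMIs per 100 cells in nicotine mice and 26.5, 24.5 and 26.0 in control mice. In elongating spermatid-like cells there were 9.07, 9.67 and 11.3 in nicotine mice and 7.0, 5.88 and 5.87 in control mice. In late spermatocyte-like cells there were 17.2, 15.0 and 16.4 in nicotine mice and 13.5, 12.9 and 9.10 in control mice. The groups did not overlap on this scale either, and nothing is read from that, as the share of all genes without overlap per 100 cells is not given here. Median depth in late spermatocyte-like cells was 9047.5 to 11574 UMIs in nicotine mice and 13836 to 14616.5 in control mice.

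Along the 17 ordered clusters the nicotine mean was the higher one in 16, the exception being cluster 19 with its 16 UMIs. In 12 of the 17, every nicotine mouse was above every control mouse in CPM, and per 100 cells, where no share over all genes is given, this held in 6. Of the 11104 genes with at least 5 CPM over all kept cells, 1, Ccl28 itself, had the CPM pattern in as many clusters (0.00901%), and since it was chosen on these values nothing is read from that. The clusters come from the same 6 mice and are not separate tests. In cluster 14, among the meiotic cells, the level was 13.5, 7.78 and 12.1 CPM in nicotine mice and 4.06, 4.06 and 3.62 CPM in control mice. All 12 elongating spermatid markers had negative fold changes there (median -0.44, against 0.00097 for all tested genes), 2 of them called lower by edgeR. In cluster 1, among the latest elongating cells, it was 16.9, 12.9 and 15.8 CPM in nicotine mice and 6.55, 6.66 and 5.57 CPM in control mice. There all 12 elongating markers had negative fold changes (median -0.15) and 10 of 12 late spermatocyte markers positive ones (median 0.13), with 0 called. The share of all genes called in clusters 14 and 1 is not given here, so these counts of called markers are not read. The part of these shifts in the Ccl28 values was not tested. In cluster 4, where the gene peaked, the groups were closer, at 19.9, 21.1 and 21.3 CPM in nicotine mice and 15.4, 14.8 and 15.5 CPM in control mice. Per 100 cells the groups overlapped there, with 35.6, 46.3 and 39.1 UMIs in nicotine mice and 38.4, 33.4 and 37.4 in control mice.

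The exception among classes was the low-UMI round spermatid-like one. Its level was 18.05, 13.7 and 11.1 CPM in nicotine mice and 13.6, 17.1 and 12.6 CPM in control mice, from 69 UMIs, and the groups overlapped. Its log2 fold change was -0.05 ± 0.36 (SE). In that class edgeR called 2.58% of genes, and 10.0% had every nicotine mouse above every control mouse. The low-UMI elongating class averaged 9.91 ± 2.43 CPM in nicotine mice and 5.67 ± 1.91 CPM in control mice, without overlap, as for 10.9% of genes there. The low-UMI late spermatocyte-like class had 11.7, 9.41 and 12.8 CPM in nicotine mice and 2.34, 10.97 and 3.72 CPM in control mice. Those overlapped, while 8.86% of its genes had every nicotine mouse above every control mouse, and edgeR called 0.988% in either direction. Early spermatocyte-like cells had 2.70, 3.22 and 12.95 CPM in nicotine mice and 1.89, 2.03 and 0 CPM in control mice, from 10 UMIs, without overlap, as for 3.93% of genes. The 6885 cells of unnamed clusters averaged 12.5 ± 1.17 CPM in nicotine mice and 6.80 ± 1.03 CPM in control mice (SD, n = 3 each).

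Over all kept cells the level was 14.7, 14.01 and 16.2 CPM in nicotine mice and 9.19, 9.57 and 9.13 CPM in control mice. The log2 fold change was 0.71 ± 0.098 (SE), and 0 of 11104 genes with at least 5 CPM had a larger one. Nothing is read from that place either, as Ccl28 was chosen on these values. Each nicotine mouse was above each control mouse, as for 3.5% of the 21997 genes tested. In such sums a change in the number of cells of a type and in RNA per cell cannot be told apart.

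Stage markers were set beside the Ccl28 difference, to see whether the classes held cells of the same stages in both groups. In round spermatid-like cells the 12 late spermatocyte, 12 round and 12 elongating spermatid markers had median log2 fold changes of -0.05, 0.04 and 0.05, and 0 of the 36 was called. Of all 17692 genes tested in that class 0 were called, so this count cannot show that the stages were alike. All 12 elongating markers there had positive fold changes. In elongating spermatid-like cells the marker medians were 0.14, -0.04 and -0.06, with 0 called, where 0.0065% of all genes were called. There 11 of the 12 late spermatocyte markers had positive and 11 of the 12 elongating markers negative fold changes. In late spermatocyte-like cells all 12 round spermatid markers had positive fold changes, from 0.18 to 0.35 with a median of 0.26, and 0 were called (0.843% of all genes were). Within that class the largest cluster, cluster 6, had 9 of these 12 called higher in nicotine mice by edgeR at adjusted p under 0.05, with a median of 0.35 (0.28 to 0.44). All tested genes there had a median of -0.0094, and 2.05% were called. Ccl28 in cluster 6 had a log2 fold change of 0.91 ± 0.16 (SE). The part of this shift in the Ccl28 value of late spermatocyte-like cells was not tested. Cluster 14 made up 32.0% to 39.8% of late spermatocyte-like cells in nicotine mice and 21.2% to 29.0% in control mice, and cluster 6 made up 42.0% to 49.9% of them in nicotine mice and 50.6% to 60.4% in control mice. Cluster 18, with the lowest Ccl28 level of the class and the deepest cells (median 29134 UMIs), made up 4.80% to 7.69% in nicotine mice and 9.35% to 12.5% in control mice. The part of these shares in the class values was not tested.

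The receptors of CCL28 were close to absent. Ccr10, the receptor shared by CCL28 and CCL27 and carried by IgA plasma cells and skin-homing T cells, had 1 UMI among the 419518101 UMIs of all kept cells, in a control Leydig-like cell. Ccr3, the eotaxin receptor of eosinophils that also binds CCL28, had 34 UMIs, 16 in nicotine and 18 in control cells, and 25 of them were in round spermatid-like cells. Neither passed the filter on low counts in any class, so neither was tested. With 0 Ccr10 UMIs, T cell-like cells allow up to 25.3 CPM and macrophage-like cells up to 3.47 CPM, so a low level there was not detectable at this depth.

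Of the chemokine ligands listed, 37 of 38 were found among the features and 34 had a UMI in kept cells. In round spermatid-like cells 31 had a UMI and 9 were tested, with a median log2 fold change of 0.07 against -0.0092 for all tested genes and 0 called. In elongating spermatid-like cells 8 were tested (median -0.08 against 0.0064 for all genes) and in late spermatocyte-like cells 7 (median -0.07 against 0.0018), again with 0 called. At an unadjusted p under 0.05 the counts were 0, 1 and 1, and DESeq2 called 0 in each. In round, elongating and late spermatocyte-like cells edgeR called 0.0%, 0.0065% and 0.843% of all genes, so 0 called says little about the ligands. Ccl27a, the gene of the other CCR10 ligand, was the most abundant ligand of germ cells. It averaged 778 ± 132 CPM in nicotine and 747 ± 138 CPM in control round spermatid-like cells (SD, n = 3 each). The groups overlapped, and the log2 fold change was 0.07 ± 0.19 (SE, edgeR adjusted p = 0.998), with its sign turned to -0.065 and -0.06 without control replicate 2 and without nicotine replicate 3. Ccl27a shares its place on chromosome 4 with Il11ra1 on the other strand and has near-identical copies, so its count is uncertain. Ccl27b, one of those copies, had 1 UMI.

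Ccl25, which draws T cells through CCR9, averaged 24.9 CPM in late spermatocyte-like cells and overlaps Elavl1 on the other strand. Other ligands sat in somatic classes, and Pf4 is named after its values were seen. Pf4, the platelet factor 4 gene also made by macrophages, averaged 1132 CPM in macrophage-like cells. Ccl5, the T cell chemokine RANTES, averaged 1183 CPM in T cell-like cells and 9.98 CPM in elongating spermatid-like cells. Cxcl12, which retains stem and immune cells through CXCR4, averaged 328 CPM in stromal-like and 191 CPM in Leydig-like cells. Cxcl1, a neutrophil attractant, averaged 176 CPM in Leydig-like cells. These are levels of 3′ tags, 1 tag a molecule, and they were not scaled by transcript length. Whether reads within introns were counted was not checked, so the part of gene length in these levels was not tested.

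Summed over all kept cells, 2 of the 23 ligands tested were called, both lower in nicotine mice, where 0.459% of all genes were called. Cxcl1 had 0.992, 0.929 and 0.516 CPM in nicotine mice and 1.47, 2.13 and 2.41 CPM in control mice (log2 fold change -1.27 ± 0.22, edgeR adjusted p = 0.0407). Cxcl12 had 1.82, 1.74 and 1.21 CPM in nicotine mice and 2.67, 2.73 and 3.00 CPM in control mice (-0.80 ± 0.15, edgeR adjusted p = 0.0465). Neither was called within Leydig-like cells (edgeR adjusted p = 1.0 for both) or stromal-like cells (edgeR adjusted p = 0.566 and 0.837), and both calls over all cells were lost without control replicate 2 or 3 and without nicotine replicate 1 or 2. Cxcl12 also lost its call with the replicate block and without either of the other two mice, and Cxcl1 with doublets left in. Cells of the somatic classes were fewer in nicotine mice, as given above, and the part of this was not tested.

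Of the 23 chemokine receptor genes listed, 17 had a UMI in round spermatid-like cells and 8 were tested there, 0 of them called (median log2 fold change 0.12). In late spermatocyte-like cells 7 were tested, with a median of 0.33, and in elongating spermatid-like cells 8, with a median of -0.02, and 0 were called in either. The unadjusted counts were 0 in round, 3 in late and 0 in elongating cells, and DESeq2 called 0 in each. As edgeR called at most 0.843% of all genes in these classes, 0 called says little about the receptors. Cxcr5, the receptor that guides B cells to follicles, averaged 28.2 ± 1.56 CPM in nicotine and 28.1 ± 4.04 CPM in control round spermatid-like cells. It had a higher level there than Ccl28 and a log2 fold change of 0.02 ± 0.10 (SE), and it overlaps Bcl9l on the other strand. Ccr6, a receptor of B cells and T cells that binds CCL20, averaged 6.86 CPM. Cx3cr1, the fractalkine receptor of macrophages, averaged 205 CPM in macrophage-like cells and 23.4 CPM in late spermatocyte-like cells. Its annotated span overlaps several other genes, so the germ cell count is uncertain.

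**Figure D4:**
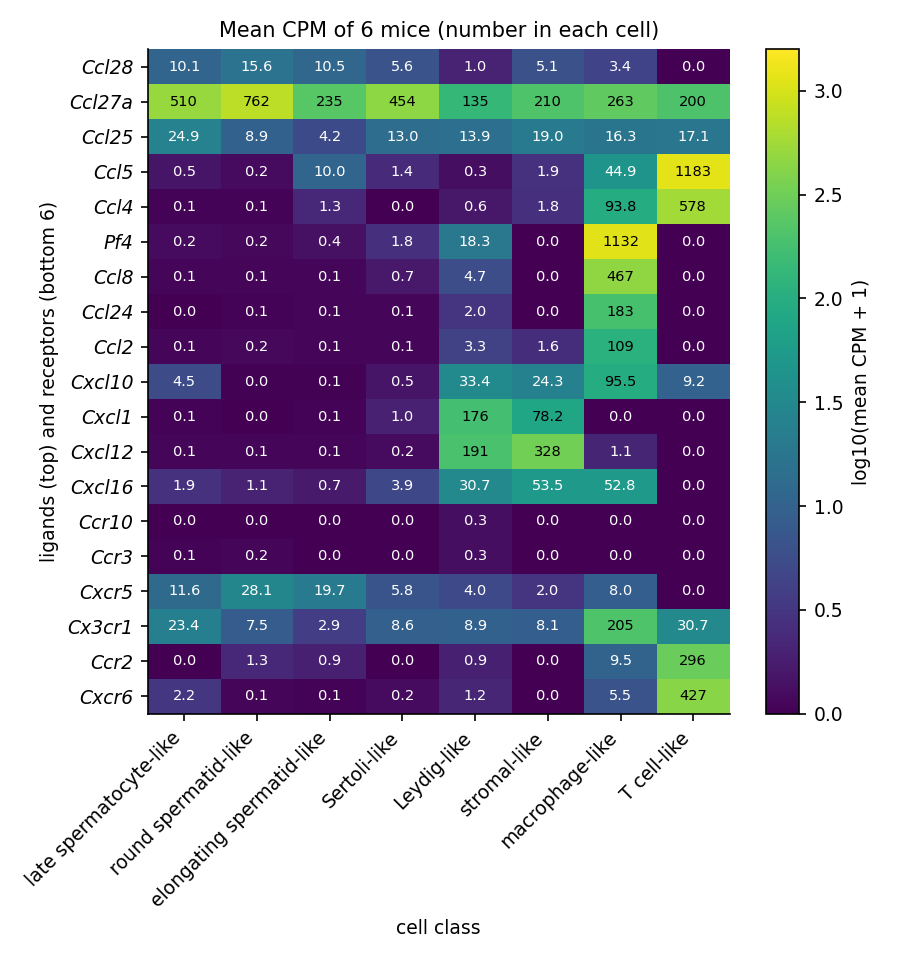
Mean CPM over 6 mice of Ccl28, 12 other chemokine ligands and 6 receptors (rows, chosen for display after their levels were seen) in 8 cell classes (columns), with color as log10(mean CPM + 1). Ccl28 has 15.6 CPM in round spermatid-like cells and Ccl27a 762 CPM, while Ccr10 and Ccr3 stay below 1 CPM in every class shown.

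Of the 8 listed partners of CCL28 in mucosal IgA secretion, Pigr, Igha and Madcam1 (15 UMIs in all kept cells) were nearly silent too. Pigr, the receptor that carries IgA across epithelia, had 13 UMIs in all kept cells. Igha, the IgA heavy chain gene, had 1. Jchain, which links IgA into dimers, had 275 UMIs, of which 123 were in nicotine and 152 in control cells. Over all kept cells the adhesion genes Vcam1 and Itgb1 were the most abundant of the 8 genes. Within round, elongating and late spermatocyte-like cells 2, 1 and 4 of the 8 were tested and 0 called, with median log2 fold changes of 0.02, -0.80 and -0.38, unadjusted counts of 1, 1 and 3 and 0 by DESeq2. At most 0.843% of all genes were called by edgeR in these classes. Vcam1, which holds immune cells to vessels and stroma, averaged 2154 CPM in Leydig-like cells and was lower over all kept cells of nicotine mice, with 12.9, 11.0 and 13.1 CPM against 17.2, 22.3 and 18.05 CPM in control mice (log2 fold change -0.61 ± 0.11, edgeR adjusted p = 0.0356). Within Leydig-like cells its log2 fold change was 0.28 ± 0.16 (edgeR adjusted p = 1.0), and the call over all cells was lost with the replicate block, without control replicate 2 or 3 and without nicotine replicate 1 or 2. No list member was called in any single class.

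On the chromosome, the 5 nearest protein-coding genes on each side were all measured. In round spermatid-like cells 7 of them were tested and 0 called, with a median log2 fold change of 0.06, 2 at an unadjusted p under 0.05 and 0 by DESeq2. In elongating spermatid-like cells 7 were tested (median 0.03) and in late spermatocyte-like cells 8 (median 0.13), with 0 called. EdgeR called at most 0.843% of all genes in these germ cell classes. The nearest before Ccl28 was Tmem267 (chr13:119488039-119611059, a transmembrane protein gene), 12760 bases away. It averaged 89.3 ± 23.3 CPM in nicotine and 72.3 ± 4.44 CPM in control round spermatid-like cells (SD, n = 3 each; log2 fold change 0.32 ± 0.21, edgeR adjusted p = 0.998). The nearest after it was Hmgcs1 (chr13:119690379-119708260), which encodes the cytosolic HMG-CoA synthase of cholesterol synthesis. It averaged 42.6 ± 0.423 CPM in nicotine and 41.2 ± 2.47 CPM in control round spermatid-like cells (0.06 ± 0.075, edgeR adjusted p = 0.998).

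Next to Hmgcs1 lies Nim1k (chr13:119710094-119755882), a serine/threonine kinase gene that, like Ccl28, had its highest level among these classes in round spermatid-like cells. It had 35.8, 29.8 and 37.4 CPM there in nicotine mice and 26.8, 24.8 and 24.5 CPM in control mice. Every nicotine mouse was above every control mouse, as for 4.56% of genes there, but the gene was not called (log2 fold change 0.45 ± 0.099, edgeR adjusted p = 0.719). It passed the threshold in 3 of the 14 alternatives, with adjusted p of 0.00141 to 0.999 over all 14. It stood in elongating spermatid-like cells at 27.3 ± 4.02 CPM in nicotine and 24.9 ± 2.98 CPM in control mice. Nim1k is named with its values because it was the neighbour with the smallest p, which was seen first.

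**Figure D5:**
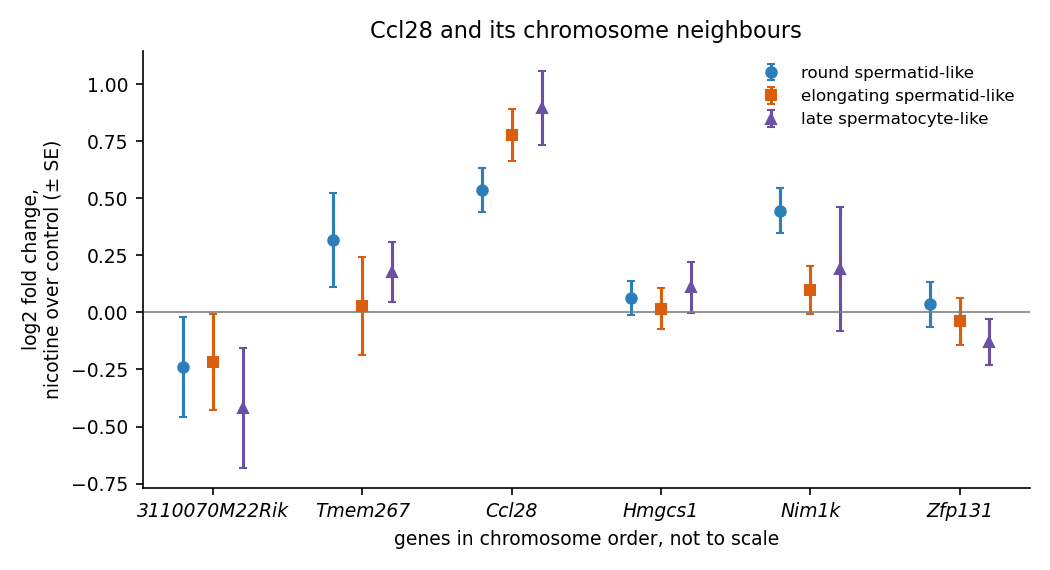
Log2 fold change, nicotine over control, with SE (y axis) of Ccl28 and 5 of its neighbours in chromosome order (x axis) in 3 germ cell classes. Ccl28 lies at 0.54 to 0.90, while Hmgcs1 lies at 0.02 to 0.11 and Nim1k at 0.10 to 0.45.

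The genes whose levels over the 13 named classes were most like those of Ccl28 were found by Pearson correlation of log2(CPM + 1), mean of 6 mice, among 16853 genes with at least 10 CPM in a class. The closest was Gm47368, at r = 0.96, and the others were Nova2, Lrrc9, Fgf12, Mxd1, 4933409F18Rik, Adgrl3, Gm34866, Ccnyl1 and Lrp2bp, at r = 0.94 to 0.92. The classes share libraries and free RNA, so these values only describe. Gm47368 was also the closest of all over the 17 ordered clusters (r = 0.95), and it was the 1 gene that the 10 closest of both rankings shared. It averaged 72.8 CPM in round spermatid-like, 40.4 CPM in elongating spermatid-like and 26.3 CPM in late spermatocyte-like cells. Its log2 fold changes between nicotine and control mice in these classes were 0.01, 0.01 and 0.40, with edgeR adjusted p of 0.998, 1.0 and 0.124. None of the 10 genes was called in any of the 3 classes, where edgeR called at most 0.843% of all genes. In round spermatid-like cells the fold changes of the 10 lay between -0.12 and 0.12, against 0.54 for Ccl28.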

How the data were processed

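Cell Ranger 7.2.0 and build GRCm38 (mm10) are named in the submitters' processing notes. The authors deposited raw UMI counts as a matrix for each library; how barcodes were chosen and whether counting used strand are not given in the sources used here. Barcodes below 500 UMIs or 250 detected genes, or with 20% or more of their UMIs mitochondrial, were dropped. The highest Scrublet scores were removed at 0.8% per 1000 cells (8.62% to 9.76% per library), since Scrublet's own threshold called as little as 0.0082% of a library. Counts were clustered without Ccl28 (scanpy 1.11.5, 2000 variable genes, 30 components, 15 neighbours, Leiden resolution 1, then somatic cells again). Clusters were named from markers, each name needing at least 3.

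Ccl28 UMIs were summed per mouse and class. Sums of classes with at least 20 cells in every mouse were fitted with edgeR 4.0.16 (quasi-likelihood, robust, TMM, filterByExpr; adjusted p under 0.05, Benjamini-Hochberg over all genes of the class), as nicotine minus control, in R 4.3.3. DESeq2 1.42.0 and the settings in the closing section were alternatives. On simulated counts, 26.9%, 67.2% and 97.0% of genes changed 1.5-fold, 2-fold and 4-fold were recovered in round spermatid-like cells (17692 genes). The simulation gave every gene the same spread between mice and no differences shared by many genes of a mouse. These shares are therefore not the recovery to be had in the real counts. No 2 mice agreed within sampling noise. Positions and the coding sequence come from GENCODE mouse release M21, written above as release 21. The gene, the gene lists and the named genes were chosen with earlier results of these data known; genes named were list members called or most abundant, the neighbours, and the 10 of most like profile.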

Additional observations from a re-analysis of the deposited data

How the results depend on the processing

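Ccl28 was higher in nicotine mice under all 14 alternatives in each class: its log2 fold change ran from 0.46 to 0.59 in round spermatid-like, 0.66 to 0.87 in elongating spermatid-like, 0.75 to 1.01 in late spermatocyte-like and 0.62 to 0.76 in all kept cells, the sums over all kept cells having been added after the data were seen. The lowest round spermatid-like value (0.46) and the lowest over all kept cells (0.62) came without nicotine replicate 3. Of the 4 classes whose level was recomputed (round, elongating, late spermatocyte and Sertoli-like), the Sertoli-like one moved, to 9.90 CPM with at least 1000 UMIs per cell; there 3 clusters with 4, 3 and 1 Ccl28 UMIs kept the name, and 2 clusters that share the leading genes Defb36 and Cstdc1, at 5.22 and 4.02 CPM, became unnamed. The share of cells with a UMI follows depth: without thinning it was 24.9% in nicotine and 20.5% in control round spermatid-like cells, and 9.25% in nicotine and 5.77% in control elongating spermatid-like cells; thinned to 1000 UMIs these were 1.62% and 1.17%, and 1.64% and 0.693%.

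Counts of called genes were less stable. With the replicate block, edgeR called 36 genes in round spermatid-like, 7 in elongating spermatid-like, 368 in late spermatocyte-like, 119 in Sertoli-like, 1 in Leydig-like and 10 in stromal-like cells. Without the low-count filter it called 132 in round spermatid-like, 17 in elongating spermatid-like, 337 in late spermatocyte-like, 63 in Sertoli-like, 6 in Leydig-like and 1 in macrophage-like cells, and 217 over all kept cells. DESeq2 called 4 in elongating spermatid-like and 199 over all kept cells. Leaving out 1 mouse gave 0 to 21 in round spermatid-like, 0 to 2 in elongating spermatid-like, 22 to 452 in late spermatocyte-like, 0 to 75 in Sertoli-like, 0 to 2 in stromal-like, 0 to 2 in macrophage-like and 0 to 93 over all kept cells. Same-numbered mice were alike for replicate 2 only: deviations from the group means correlated at -0.07, 0.79 and 0.18 for replicates 1, 2 and 3 in round spermatid-like cells. In elongating spermatid-like cells replicate 2 gave 0.80. The replicate 2 mice of both groups were also the closest of all 15 pairs in round spermatid-like cells (chi-squared per gene 3.66, with 25.3 for the least alike pair). What these mice share was not tested.

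Of the chemokine, receptor, IgA partner and neighbour genes, none was called in the 3 main germ classes or macrophage-like cells, but Nim1k was called in round spermatid-like cells without the filter, with the replicate block and without nicotine replicate 2 (1 gene each). Late spermatocyte-like cells gave 3 calls without the filter (Ccl21a, Ccr9, Cxcl10), 2 with the block and 0 to 2 leaving out a mouse. Macrophage-like cells gave 1 (Ccl4) without the filter and 0 to 1 leaving out a mouse. Over all kept cells the 3 calls became 1 with the block and 0 to 3 leaving out a mouse. In round spermatid-like cells the 3 settings that called Nim1k called 21 to 132 of all genes. Alternatives in late spermatocyte-like cells called 22 to 452 of all genes. The percent of all genes called under each alternative is not given here, so nothing is read from these calls of list members. Ccl27a in round spermatid-like cells ran from -0.065 to 0.21 leaving out a mouse, turning its sign without control replicate 2 (-0.065) and nicotine replicate 3 (-0.06). The cause of these changes was not tested. Low UMI numbers limit every somatic value of Ccl28.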
